A study of Mus musculus with 24 samples.

Results

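The Slc25 genes encode the mitochondrial carriers, a family of membrane transporters that was followed here in mouse macrophages treated with lysophosphatidic acid (LPA) or lipopolysaccharide (LPS). Members were the rows of the deposited count table whose symbol begins with Slc25a followed by a number, which gave 37 of 11590 genes. The choice was made by symbol, in a table from which genes of low count had been removed. All 37 passed the count filter of the test. A further 11 carriers that were listed by substrate (Slc25a2, Slc25a18, Slc25a21, Slc25a29, Slc25a31, Slc25a34, Slc25a41, Slc25a47, Slc25a48, Slc25a52 and Slc25a54) were not analysed here. The cells were macrophages derived from bone marrow of male C57BL/6 mice by culture with the growth factor M-CSF. The mice were wild type (WT) or deficient in GPR35 (KO), a G protein-coupled receptor, and the kind of Gpr35 allele is not given in the labels. On culture day 7 the cells of either genotype were left untreated, or received LPA at 10 µM or LPS at 10 ng/mL for 4 h. Each of the 6 groups held 4 libraries, 24 in all. The series title puts the question as whether GPR35 carries the LPA signal at the level of transcripts. The labels do not say whether the replicates came from separate mice or cultures, so a p-value here measures the spread between libraries, which may be technical.

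Mitochondrial carriers sit for the most part in the inner mitochondrial membrane, where each exchanges or takes up a small solute that the membrane does not let through by itself. They supply oxidative phosphorylation with ADP and phosphate, pass citrate, dicarboxylates and amino acids between matrix and cytosol, and bring in cofactors, nucleotides and iron. In macrophages activated through Toll-like receptors the citrate carrier is known for exporting the citrate from which acetyl-CoA, and from it lipids and prostaglandins, are made. The carriers are encoded in the nucleus and inserted into the inner membrane by the TIM22 complex.

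A library held 15167683 to 46697165 counts. The 12 WT libraries (31985119 to 46697165 counts) were sequenced on 2 lanes and the 12 KO libraries (15167683 to 21461866 counts) on 1 lane, so genotype cannot be told apart from lane and depth. Levels are given as CPM, counts scaled to the library size after TMM normalization, and levels of different genes are compared only as CPM per kb of gene length. A member is said to rise or fall where the edgeR quasi-likelihood test gave a Benjamini-Hochberg adjusted p below 0.05 over all 11590 genes, and a log2 change is given ± its SE from that fit. The 37 members together took 0.1675 to 0.185% of the counts of a library. Gpr35 lay between 2.33 and 2.78 CPM in untreated WT libraries and between 0.0529 and 0.205 CPM in untreated KO libraries. In WT libraries it was at 1.34 to 2.78 CPM with LPA and at 0.296 to 0.636 CPM with LPS. In KO libraries it was at 0 to 0.198 CPM with LPA and at 0 CPM with LPS. All 10 macrophage markers on the list were measured, and their summed level was 34030 to 37060 CPM in untreated libraries and 43980 to 47990 CPM with LPS. Of these 10 genes, 6 were called higher and 4 lower with LPS in each genotype. Of 13 erythroid markers only Epor had a row, and no globin gene did. Epor fell from 2.537 to 4.825 CPM in untreated libraries to 0.07067 to 0.208 CPM with LPS, and in WT cells with LPA it was at 0.82 to 2.031 CPM. Neutrophil markers had rows for 11 of 13 genes, including Mpo and Elane, with a summed level of 173.5 to 558.2 CPM over all libraries. In this sum the treated libraries of a genotype overlapped its untreated ones, whereas WT libraries with LPA (230.3 to 276.7 CPM) lay just below untreated KO libraries (277.3 to 558.2 CPM). Gene by gene, 1 of the 11 was called higher and 6 lower with LPS in WT cells, and 1 higher and 7 lower in KO cells. Of all genes, 40.6% were called higher and 43.6% lower with LPS in WT cells. Stromal and endothelial markers (6 of 8 measured) summed to 14.36 to 28.28 CPM in the KO libraries with LPA against 6.66 to 12.74 CPM in untreated KO libraries. Of the 6, 1 was called higher with LPA in KO cells, where 2.62% of all genes were called. The sum was 11.07 to 13.6 CPM in KO libraries with LPS. In WT libraries it was 8.422 to 14.99 CPM untreated, 7.38 to 17.03 CPM with LPA and 12.18 to 27.68 CPM with LPS. Dendritic cell markers had rows for 2 of 8 genes, Kmo and Bst2, which summed to 181.5 to 306.5 CPM untreated and 462.1 to 709.5 CPM with LPS. The 2 genes moved in opposite directions, 1 higher and 1 lower with LPS in each genotype. Lymphocyte markers had a row for 1 of 9, Cd4, at 62.75 to 92.49 CPM untreated and 26.55 to 42.46 CPM with LPS. Whether these cells contributed to any change of a carrier was not tested. In such bulk libraries fewer cells of a type and less RNA per cell cannot be told apart.

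Promoter windows of 300 bases (250 before and 50 after a transcript start, RefSeq, build GRCm38.p6) were at hand for 28 of the 37 members, in 37 windows since some genes have several starts. Members without an entry included Slc25a26, Slc25a27, Slc25a32, Slc25a35, Slc25a37, Slc25a44, Slc25a46 and Slc25a51. The windows of the members with large LPS responses and of the pyrimidine nucleotide carriers Slc25a33 and Slc25a36, which moved in opposite directions with LPS, are shown. They lie at chr7:141437825-141438124 (Slc25a22), chr2:32451421-32451720 (Slc25a25), chr2:71367706-71368005 (Slc25a12), chr8:70212232-70212531 (Slc25a42), chr4:149774218-149774517 (Slc25a33) and chr9:97110992-97111291 (Slc25a36), all on the minus strand, and at chr5:8422588-8422887 (Slc25a40) on the plus strand. For Slc25a22 and Slc25a25 the window is the farthest upstream of 3 listed for each. Capitals mark matches, on either strand, to ACGTG (the core bound by hypoxia-inducible factors), TGACG (part of the cyclic AMP response element) and GGGCGG (a GC box).
Slc25a22: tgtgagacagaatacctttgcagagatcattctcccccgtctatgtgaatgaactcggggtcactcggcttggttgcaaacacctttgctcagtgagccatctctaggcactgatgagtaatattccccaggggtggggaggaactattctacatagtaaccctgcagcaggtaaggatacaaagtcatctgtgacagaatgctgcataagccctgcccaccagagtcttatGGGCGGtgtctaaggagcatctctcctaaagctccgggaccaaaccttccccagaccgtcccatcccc
Slc25a25: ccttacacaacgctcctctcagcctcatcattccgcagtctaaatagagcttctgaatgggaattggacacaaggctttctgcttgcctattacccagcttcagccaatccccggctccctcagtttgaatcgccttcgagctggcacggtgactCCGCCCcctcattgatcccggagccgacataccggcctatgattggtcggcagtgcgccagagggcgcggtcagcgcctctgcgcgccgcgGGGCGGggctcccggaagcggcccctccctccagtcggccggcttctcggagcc
Slc25a12: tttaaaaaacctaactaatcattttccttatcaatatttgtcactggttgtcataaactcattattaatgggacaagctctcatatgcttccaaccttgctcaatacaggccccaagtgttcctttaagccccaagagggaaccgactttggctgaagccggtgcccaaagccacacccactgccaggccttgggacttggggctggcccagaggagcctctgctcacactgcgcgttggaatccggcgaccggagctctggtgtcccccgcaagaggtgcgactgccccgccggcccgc
Slc25a42: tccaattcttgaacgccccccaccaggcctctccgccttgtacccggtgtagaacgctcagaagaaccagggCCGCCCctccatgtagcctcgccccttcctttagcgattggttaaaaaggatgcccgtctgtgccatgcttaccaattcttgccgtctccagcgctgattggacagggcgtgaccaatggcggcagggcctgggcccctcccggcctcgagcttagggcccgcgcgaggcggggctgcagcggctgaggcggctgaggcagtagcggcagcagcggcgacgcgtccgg
Slc25a40: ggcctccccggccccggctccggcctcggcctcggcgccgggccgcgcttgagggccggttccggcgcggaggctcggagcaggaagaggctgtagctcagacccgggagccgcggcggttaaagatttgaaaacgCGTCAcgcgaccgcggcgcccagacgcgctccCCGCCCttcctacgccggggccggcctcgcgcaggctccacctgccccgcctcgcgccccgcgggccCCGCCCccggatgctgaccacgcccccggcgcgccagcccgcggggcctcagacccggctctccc
Slc25a33: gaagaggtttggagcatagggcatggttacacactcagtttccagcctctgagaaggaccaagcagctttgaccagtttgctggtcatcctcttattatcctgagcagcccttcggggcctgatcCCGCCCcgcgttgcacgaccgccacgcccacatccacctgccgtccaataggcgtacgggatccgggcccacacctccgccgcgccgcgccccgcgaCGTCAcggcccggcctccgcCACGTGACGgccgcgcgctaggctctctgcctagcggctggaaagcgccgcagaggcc
Slc25a36: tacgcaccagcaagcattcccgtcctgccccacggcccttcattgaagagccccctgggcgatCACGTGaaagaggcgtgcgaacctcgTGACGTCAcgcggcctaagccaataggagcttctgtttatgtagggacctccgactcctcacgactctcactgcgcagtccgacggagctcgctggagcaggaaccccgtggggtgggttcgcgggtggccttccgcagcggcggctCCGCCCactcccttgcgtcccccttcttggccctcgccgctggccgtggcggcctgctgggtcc

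The GC box GGGCGG stood in 34 of the 37 member windows (91.9%), belonging to 26 of the 28 genes. It stood in 35.7% of all 32851 promoter windows and in 62.5% of the 11619 windows of genes in the count table. The printed window of Slc25a12 held none of the marked motifs. Of the 3 windows listed for Slc25a25, that at chr2:32424017-32424316 held 2 matches to TGACG. The others, with the printed one among them, held 0. ACGTG was present in 29.7% of member windows and in 25.7% of the windows of genes in the table (19.6% of all windows). CACGTG, an E-box in which every match also holds ACGTG, was present in 18.9% of member windows against 10.2% for genes in the table and 7.15% of all windows. TGACG was found in 32.4% of member windows against 31.6% and 20.8%. For CCGGAAG, bound by ETS factors, the shares were 16.2%, 18.5% and 8.86% in the same order. The AP-1 motif TGANTCA was present in 5.41% of member windows against 5.06% and 7.81%. An NF-kB consensus matched 5.41% of member windows, those of Slc25a1 and Slc25a10, against 5.19% and 4.51%. All motifs were searched on both strands, and windows of the same gene can overlap, so they are not independent. The windows of Slc25a33 and Slc25a36 both held the E-box, the cyclic AMP element motif and the GC box. These matches describe the letters of the windows and not binding.

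In untreated WT macrophages the most abundant carrier transcripts, per kb of gene length, were those that serve ATP synthesis. Slc25a3, the phosphate carrier, stood at 163.9 ± 3.7 CPM per kb (SD, n = 4). Slc25a5 and Slc25a4, which exchange ADP for ATP across the inner membrane, stood at 125.3 ± 5.8 and 94.9 ± 2.4 CPM per kb. These 3 genes made up 46.9% of the summed level of the family, and each was separated from the next without overlap of libraries. The oxoglutarate-malate carrier Slc25a11 followed at 58.5 ± 0.9 CPM per kb. Slc25a39, a glutathione carrier (47.9 ± 1.5), and Slc25a45, whose substrate is uncertain (47.7 ± 0.8), came next and overlapped each other. The citrate carrier Slc25a1 stood at 27.0 ± 0.8 CPM per kb. At the lower end were Slc25a42, a coenzyme A carrier (0.828 ± 0.093), Slc25a53 (0.681 ± 0.054) and the uncoupling protein-like Slc25a27 (0.362 ± 0.062). Neighbours in the order were separated, with no overlap of their 4 libraries, in 16 of 36 pairs, so much of the middle of the order is not resolved. Slc25a3 kept rank 1 in all 6 groups. Slc25a22, a glutamate carrier, went from rank 10 in untreated WT cells to rank 2 with LPS, and from rank 13 to rank 3 in KO cells.

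**Figure D1:**
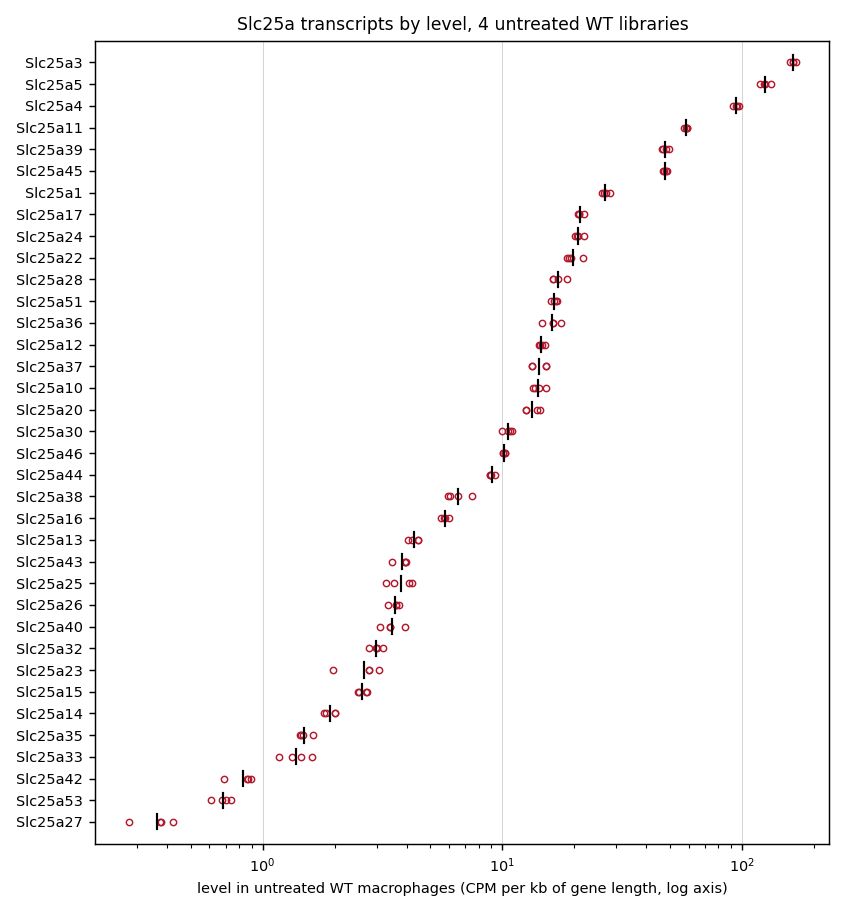
Level of 36 of the 37 Slc25a transcripts in the 4 untreated WT libraries, in CPM per kb of gene length on a log axis; circles are libraries and bars are means. Slc25a3, Slc25a5 and Slc25a4 stand above the rest, Slc25a27 is lowest at 0.362, and neighbours in the middle of the order overlap.

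LPS changed most of the family, and it moved individual carriers far apart. In WT cells 14 members rose and 18 fell (86.5% of members), against 84.2% of all genes tested, of which 40.6% rose and 43.6% fell. In KO cells 14 rose and 18 fell as well (86.5%), against 82.3% of all genes (39.3% higher, 43.0% lower). These were the same 14 and the same 18 members, from comparisons that share no libraries. The overlap of calls over all genes was not counted, and the LPS effect differed between the genotypes for 0 of 11590 genes. The shared calls are therefore not read as particular to the carriers. The share of members that changed was thus close to that of genes in general, and so was the size of change: the median absolute log2 change in WT cells was 0.73 over members and 0.68 over all genes. Changes of at least 2-fold were seen for 12 members in WT and 11 in KO cells. The share of all genes with such a change was not counted, so these 2 counts describe no trait of the family. All 4 LPS libraries lay outside the range of the 4 untreated ones for 31 members in WT cells (80.8% of all genes) and 29 in KO cells (74.7% of all genes). Slc25a5, Slc25a24, Slc25a32, Slc25a38 and Slc25a53 were not called with LPS in either genotype. The directions of small rises depend on the scaling: with library totals in place of TMM factors, which shifts the median log2 change of all genes to -0.59 in WT and -0.55 in KO cells, the split became 9 higher and 26 lower in WT and 9 higher and 25 lower in KO cells. Of the 14 rises, Slc25a3, Slc25a17, Slc25a45 and Slc25a46 then changed sign in both genotypes and Slc25a37 was no longer called, whereas all 18 falls held.

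**Figure D2:**
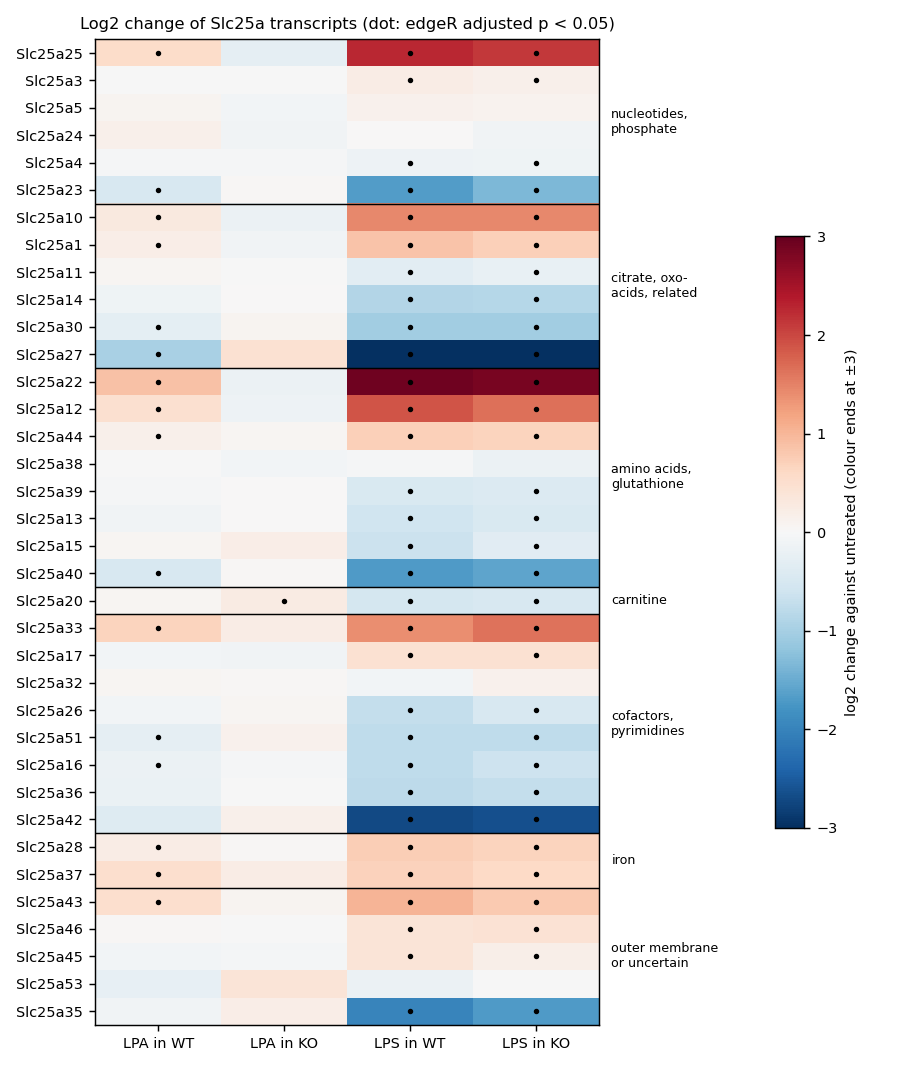
Log2 change of 36 of the 37 Slc25a transcripts with LPA or LPS against untreated cells of the same genotype, by substrate group and, within a group, by the LPS change in WT; a dot marks an edgeR adjusted p below 0.05. The 2 LPS columns carry dots on the same 31 of the members shown, the LPA column of WT on 16 and that of KO on Slc25a20 alone.

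Among the carriers of amino acids and glutathione (8 measured), 3 rose and 4 fell with LPS in each genotype. Slc25a22, which brings glutamate into the matrix, had the largest rise of the family. Slc25a22 stood at 61.9, 55.2, 53.4 and 54.4 CPM in the 4 untreated WT libraries and at 406, 415, 474 and 417 CPM in those with LPS. In KO cells the values were 36, 50.1, 40.8 and 53.9 CPM untreated and 329.7, 369, 296 and 312 CPM with LPS. The LPS libraries of both genotypes stood far above all others. The log2 change was 2.93 ± 0.12 (adjusted p = 8.12e-16) in WT and 2.85 ± 0.12 (adjusted p = 2.30e-15) in KO cells, or 7.61-fold and 7.22-fold. Slc25a12 (chr2:71271063-71367749, minus strand), an aspartate-glutamate carrier of the malate-aspartate shuttle, rose as well. In WT cells Slc25a12 was at 44, 42, 42.9 and 41.6 CPM untreated and at 148, 158, 170.1 and 159 CPM with LPS. KO libraries gave 40.5, 41.9, 38.2 and 45.5 CPM without treatment and 134, 130.2, 122 and 134 CPM with LPS. The untreated and LPS ranges were separate in both genotypes, with log2 changes of 1.90 ± 0.06 (adjusted p = 4.33e-18) and 1.65 ± 0.06 (adjusted p = 4.43e-17). Its paralogue Slc25a13, with the same transport activity, fell, with log2 changes of -0.60 ± 0.11 (adjusted p = 2.58e-05) and -0.45 ± 0.12 (adjusted p = 0.00116). Slc25a44, a carrier of branched-chain amino acids, rose by a log2 change of 0.72 ± 0.05 (adjusted p = 9.34e-13) in WT cells.

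The glutathione carriers Slc25a39 and Slc25a40 both fell with LPS, Slc25a40 (chr5:8422850-8454797, plus strand) by more. Untreated WT libraries had Slc25a40 levels of 8.79, 9.69, 11.1 and 9.7 CPM, and WT libraries with LPS had 2.7, 3.18, 2.5 and 3.66 CPM. The KO libraries stood at 9.49, 9.83, 10.7 and 8.65 CPM untreated and at 3.35, 3.6, 2.5 and 3.53 CPM with LPS. Every LPS library was below every untreated one. The log2 change of Slc25a40 was -1.70 ± 0.13 (adjusted p = 1.56e-11) in WT and -1.57 ± 0.14 (adjusted p = 3.95e-10) in KO cells. For the more abundant Slc25a39 it was -0.46 ± 0.05 (adjusted p = 3.06e-09) and -0.42 ± 0.05 (adjusted p = 2.44e-08). The ornithine carrier Slc25a15 fell too (-0.65 ± 0.09, adjusted p = 2.44e-07 in WT), while the glycine carrier Slc25a38 had a log2 change of -0.03 ± 0.08 (adjusted p = 0.76) that was not called.

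**Figure D3:**
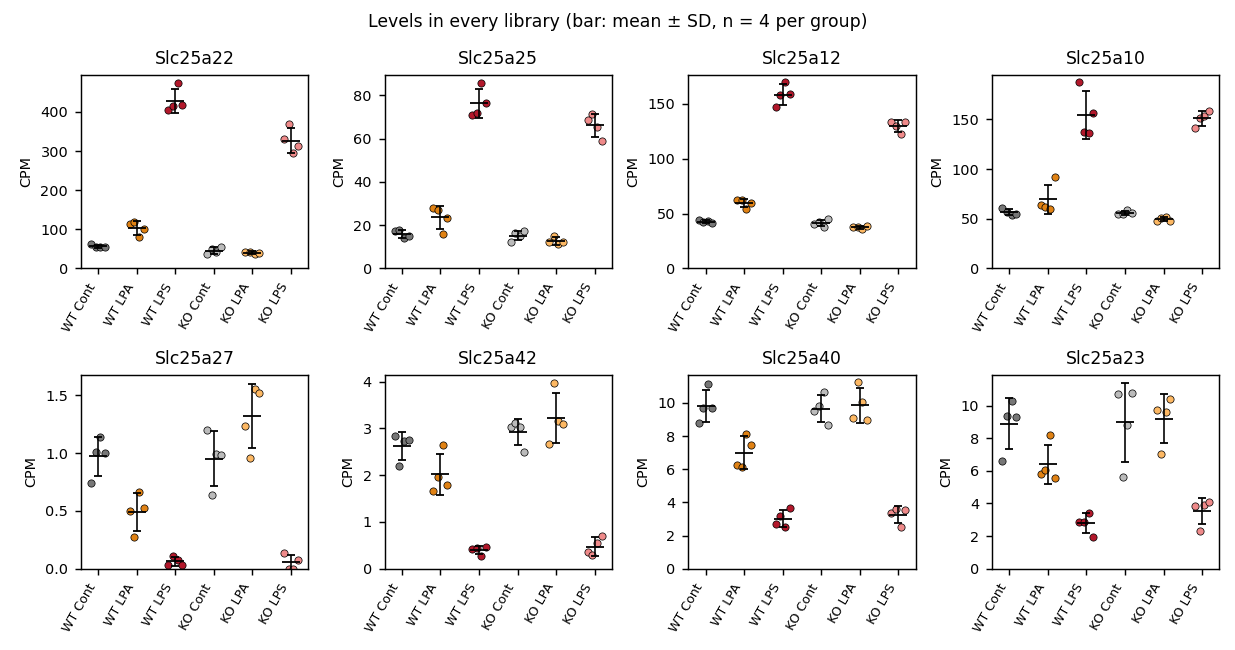
CPM in each of the 24 libraries for 4 members with large rises and 4 with large falls under LPS; bars are mean ± SD over 4 libraries. Slc25a22 goes from 56.2 to 428 CPM with LPS in WT cells. For Slc25a22, Slc25a12, Slc25a27 and Slc25a40 the LPA libraries of WT, but not those of KO, sit between the untreated and LPS libraries. For Slc25a25, Slc25a10, Slc25a23 and Slc25a42 the LPA libraries of WT overlap the untreated ones.

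Of the 6 carriers of adenine nucleotides and phosphate, 2 rose and 2 fell with LPS in each genotype. Slc25a23, Slc25a24 and Slc25a25 are calcium-regulated carriers that exchange ATP-Mg for phosphate, and they moved apart. Slc25a25 stood at 17.3, 17.9, 13.9 and 15 CPM in the 4 untreated WT libraries and at 71.2, 71.8, 86 and 76.6 CPM in those with LPS. In KO cells the values were 12.2, 16.6, 14.9 and 17.2 CPM untreated and 68.8, 71.2, 65.5 and 59 CPM with LPS. Slc25a25 (chr2:32414487-32451445, minus strand) was thus higher in every LPS library, with log2 changes of 2.25 ± 0.14 (adjusted p = 8.27e-13) in WT and 2.12 ± 0.14 (adjusted p = 7.32e-12) in KO cells. In WT cells Slc25a23 was at 6.63, 9.37, 10.3 and 9.32 CPM untreated and at 2.84, 2.89, 3.44 and 1.97 CPM with LPS. KO libraries gave 10.7, 5.6, 8.81 and 10.8 CPM without treatment and 3.84, 2.33, 3.88 and 4.08 CPM with LPS. Slc25a23 fell, with log2 changes of -1.68 ± 0.21 (adjusted p = 1.12e-07) and -1.35 ± 0.22 (adjusted p = 8.00e-06) and no overlap between untreated and LPS libraries. Slc25a24 was not called (log2 change 0.02 ± 0.08, adjusted p = 0.848 in WT). The abundant ATP-synthesis carriers changed little: the log2 change in WT cells was 0.22 ± 0.04 (adjusted p = 1.45e-05) for Slc25a3, -0.14 ± 0.04 (adjusted p = 0.00226) for Slc25a4 and 0.12 ± 0.07 (adjusted p = 0.107) for Slc25a5. Slc25a3 is among the members whose sign depends on the scaling. Of the 51-base stretches of Slc25a5 transcripts, 33.0% also occur in other annotated genes, mostly pseudogenes such as Gm5560, so its count depends on how shared reads were assigned.

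Citrate, dicarboxylate and oxoacid carriers and the related uncoupling protein-like members (6 measured) gave 2 rises and 4 falls with LPS in each genotype. Slc25a10, the dicarboxylate carrier that exchanges malate or succinate for phosphate, rose. Untreated WT libraries had Slc25a10 levels of 61.2, 57, 53.7 and 54.9 CPM, and WT libraries with LPS had 188, 137, 136 and 156 CPM. The KO libraries stood at 54.3, 54.6, 58.8 and 55.6 CPM untreated and at 141, 152, 153 and 159 CPM with LPS. No untreated library reached an LPS library, and the log2 changes were 1.45 ± 0.11 (adjusted p = 1.78e-11) and 1.44 ± 0.11 (adjusted p = 3.65e-11). The citrate carrier Slc25a1 rose from 45.2 ± 1.4 to 81.3 ± 5.9 CPM in WT cells (SD, n = 4 each), a log2 change of 0.85 ± 0.08 (adjusted p = 3.85e-10), and by 0.71 ± 0.08 (adjusted p = 1.86e-08) in KO cells. The oxoglutarate carrier Slc25a11 fell, with a log2 change of -0.32 ± 0.06 (adjusted p = 2.40e-05) in WT. Slc25a14, Slc25a27 and Slc25a30 resemble uncoupling proteins in sequence and all 3 fell, Slc25a14 by 0.87 and Slc25a30 by 1.04 on the log2 scale in WT cells.

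Slc25a27 (chr17:43641891-43667214, minus strand) had the largest fall of the family, at the lowest level of all members. Slc25a27 stood at 0.742, 1.01, 1.14 and 1 CPM in the 4 untreated WT libraries and at 0.035, 0.111, 0.0748 and 0.0352 CPM in those with LPS. In KO cells the values were 1.2, 0.634, 0.995 and 0.984 CPM untreated and 0.14, 0, 0 and 0.0785 CPM with LPS. The LPS libraries of both genotypes were all below the untreated ones. Summed over 4 libraries, 7 counts were left with LPS against 173 untreated in WT cells, which is 6.53% of the untreated level after scaling (exact Clopper-Pearson 95% interval 2.59 to 13.7%, counting error only). In KO cells 3 counts against 84 gave 5.57% (1.13 to 16.9%). The fitted log2 changes of -3.85 ± 0.41 (adjusted p = 6.53e-09) and -4.05 ± 0.54 (adjusted p = 3.68e-07) rest on these few counts and depend on the prior count of the fit.

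Among the carriers of cofactors and pyrimidine nucleotides (9 measured), 2 rose and 6 fell with LPS in each genotype. Slc25a42 (chr8:70184340-70212305, minus strand), which brings coenzyme A into the matrix, fell most. In WT cells Slc25a42 was at 2.84, 2.19, 2.72 and 2.76 CPM untreated and at 0.42, 0.444, 0.262 and 0.458 CPM with LPS. KO libraries gave 3.03, 3.12, 3.03 and 2.5 CPM without treatment and 0.349, 0.283, 0.555 and 0.706 CPM with LPS. The ranges were separate in both genotypes, with log2 changes of -2.71 ± 0.21 (adjusted p = 2.79e-11) and -2.63 ± 0.24 (adjusted p = 7.61e-10). Slc25a16, also linked to coenzyme A, fell by 0.76 on the log2 scale in WT cells. The NAD carrier Slc25a51 fell from 73.4 ± 1.8 to 43.4 ± 1.9 CPM in WT cells (SD, n = 4 each), a log2 change of -0.76 ± 0.04 (adjusted p = 1.12e-13). The S-adenosylmethionine carrier Slc25a26 fell (-0.73 ± 0.10, adjusted p = 3.64e-07), and Slc25a17, a peroxisomal carrier of coenzyme A and related cofactors, was called higher (0.45 ± 0.05, adjusted p = 7.09e-09), a sign that depends on the scaling.

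The pyrimidine nucleotide carriers Slc25a33 and Slc25a36, whose promoter windows share the motifs named above, changed in opposite directions with LPS. Untreated WT libraries had Slc25a33 levels of 3.01, 2.7, 2.2 and 2.48 CPM, and WT libraries with LPS had 7.5, 7.25, 5.72 and 6.83 CPM. The KO libraries stood at 1.87, 2.48, 3.08 and 2.26 CPM untreated and at 6.84, 6.86, 9.15 and 7.22 CPM with LPS. Slc25a33 (chr4:149744036-149774277, minus strand) rose without overlap, with log2 changes of 1.39 ± 0.16 (adjusted p = 4.03e-08) and 1.64 ± 0.18 (adjusted p = 1.53e-08). Slc25a36 stood at 45.1, 49.9, 53.7 and 49.7 CPM in the 4 untreated WT libraries and at 28.4, 32.5, 28.7 and 26.2 CPM in those with LPS. In KO cells the values were 55.8, 44, 54.9 and 51.1 CPM untreated and 31.3, 27.9, 32.7 and 33.7 CPM with LPS. Slc25a36 (chr9:97074961-97111157, minus strand) fell without overlap, with log2 changes of -0.78 ± 0.10 (adjusted p = 2.13e-07) and -0.71 ± 0.11 (adjusted p = 1.63e-06). For Slc25a33, 14.9% of the exon bases lie opposite exons of Gm13068, and for Slc25a36, 6.64% of the 51-base stretches also occur in Gm13217. The strand setting of the counting is not given in the sources used here, so reads from opposite strands cannot be told apart.

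Both iron carriers rose with LPS: the mitoferrins Slc25a37 and Slc25a28, which supply iron for haem and iron-sulfur clusters, had log2 changes in WT cells of 0.69 ± 0.10 (adjusted p = 1.54e-06) and 0.74 ± 0.08 (adjusted p = 1.40e-08). The call of Slc25a37 is lost when library totals are used for scaling (log2 change 0.13, adjusted p = 0.158 in edgeR). Slc25a20, the carnitine-acylcarnitine carrier of fatty acid oxidation, fell by 0.54 in WT and by 0.48 in KO cells on the log2 scale. Among the 5 members of the outer membrane or of uncertain substrate, 3 rose and 1 fell in each genotype. Slc25a43 went from 4.79 ± 0.31 to 9.77 ± 1.12 CPM in WT cells (SD, n = 4 each), a log2 change of 1.03 ± 0.10 (adjusted p = 2.74e-09). Slc25a35 fell. In WT cells Slc25a35 was at 2.97, 2.68, 2.62 and 2.63 CPM untreated and at 0.42, 0.703, 0.86 and 0.775 CPM with LPS. KO libraries gave 3.3, 3.65, 3.08 and 2.05 CPM without treatment and 0.628, 0.848, 1.11 and 1.1 CPM with LPS. No LPS library of Slc25a35 reached an untreated one, and the log2 changes were -1.98 ± 0.20 (adjusted p = 3.18e-09) and -1.71 ± 0.22 (adjusted p = 2.52e-07). Of its exon bases 31.3% lie opposite exons of Rangrf, so part of its count could come from that gene.

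LPA gave smaller changes in WT cells. It raised 10 members and lowered 6 (43.2% of members), against 44.6% of all genes tested (23.5% higher, 21.1% lower), and no change reached 2-fold. The groups did not overlap for 11 members (34.9% of all genes). By substrate, 3 of 8 amino acid carriers, 2 of 6 citrate and oxoacid carriers, both iron carriers, and 1 member each of the nucleotide, cofactor and uncertain groups rose. The 6 falls were Slc25a16, Slc25a23, Slc25a27, Slc25a30, Slc25a40 and Slc25a51. With library totals for scaling, 6 rises and 9 falls were called, and Slc25a1, Slc25a10, Slc25a28 and Slc25a44 lost their calls. Of the 16 calls, 6 were also lost in some of the 8 fits that left out 1 WT library: those of Slc25a1, Slc25a16, Slc25a23 and Slc25a28 in 6 fits each, that of Slc25a10 in 4 and that of Slc25a44 in 1. Slc25a10 stood at 91.8 CPM in LPA replicate 4 and at 60.04 to 63.6 CPM in the other LPA libraries of WT. Without replicate 4 its log2 change was 0.13 (adjusted p = 0.205, edgeR) in place of 0.29, and without LPA replicate 1 that of Slc25a1 was 0.12 (adjusted p = 0.203) in place of 0.19.

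Slc25a22 again rose most. Untreated WT libraries had Slc25a22 levels of 61.9, 55.2, 53.4 and 54.4 CPM, and WT libraries with LPA had 113, 119, 79.8 and 102 CPM. The KO libraries stood at 36, 50.1, 40.8 and 53.9 CPM untreated and at 42.1, 43.1, 36.6 and 38.8 CPM with LPA. Every WT library with LPA lay above every untreated WT library, whereas the KO libraries overlapped. The log2 change was 0.88 ± 0.11 (adjusted p = 5.34e-06) in WT, against -0.17 ± 0.12 (adjusted p = 0.638) in KO cells. Slc25a33 changed by 0.67 ± 0.16 (adjusted p = 0.00245), Slc25a37 by 0.50 ± 0.10 (adjusted p = 5.08e-04) and Slc25a43 by 0.50 ± 0.10 (adjusted p = 5.92e-04) in WT cells, each without overlap. For Slc25a37 and Slc25a43 the highest untreated libraries stood at 63.5 and 4.97 CPM and the lowest LPA libraries at 70.9 and 5.73 CPM. The LPA values of Slc25a25 were 27.9, 27.0, 16.0 and 23.4 CPM against 13.9 to 17.9 CPM untreated, where replicate 3 overlapped, and its log2 change was 0.56 ± 0.14 (adjusted p = 0.00242). Slc25a12 had the smallest adjusted p of the members, with a log2 change of 0.49 ± 0.05 (adjusted p = 9.04e-07). Replicate 3 with LPA was the closest to the untreated cells for Slc25a22, Slc25a25 and Slc25a12. Without it 20 members were called, and the log2 changes of Slc25a22 and Slc25a25 were 0.99 and 0.70.

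Of the members that fell with LPA in WT cells, Slc25a27 changed most. Slc25a27 stood at 0.742, 1.01, 1.14 and 1 CPM in the 4 untreated WT libraries and at 0.501, 0.277, 0.668 and 0.522 CPM in those with LPA. In KO cells the values were 1.2, 0.634, 0.995 and 0.984 CPM untreated and 1.24, 0.961, 1.56 and 1.52 CPM with LPA. The WT groups did not overlap and the KO groups did. The log2 change was -0.98 ± 0.26 (adjusted p = 0.00417) in WT, and with all libraries thinned to the smallest depth it was -0.63 with an adjusted p of 0.117 (edgeR), so the call was lost. In WT cells Slc25a40 was at 8.79, 9.69, 11.1 and 9.7 CPM untreated and at 6.26, 6.11, 8.15 and 7.49 CPM with LPA. Slc25a40 thus fell without overlap, by 0.49 on the log2 scale (adjusted p = 0.00204, edgeR). Slc25a30 and Slc25a51 also fell without overlap, with log2 changes of -0.29 ± 0.07 (adjusted p = 0.00246) and -0.27 ± 0.04 (adjusted p = 3.37e-05). Slc25a23 had a log2 change of -0.48 ± 0.19 (adjusted p = 0.0466) with overlapping libraries. Its adjusted p reached 0.129 when 1 library was left out.

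The LPA and LPS comparisons of a genotype share its untreated libraries, so their values are set side by side and not correlated. The log2 changes in WT cells with LPA and with LPS were 0.88 and 2.93 for Slc25a22, 0.56 and 2.25 for Slc25a25, 0.49 and 1.90 for Slc25a12, and, with the LPA value resting on 1 library as given above, 0.29 and 1.45 for Slc25a10. They were 0.67 and 1.39 for Slc25a33 and 0.50 and 0.69 for Slc25a37. Among the falls they were -0.98 and -3.85 for Slc25a27, -0.49 and -1.70 for Slc25a40, and -0.29 and -1.04 for Slc25a30. Compared directly, LPS libraries of WT were higher than LPA libraries for 13 members and lower for 17 (81.1%), against 78.9% of all genes (37.8% higher, 41.1% lower). In KO cells the counts were 15 and 18 (89.2%), against 82.5% of all genes (39.6% higher, 42.8% lower). Slc25a37 was not called between LPS and LPA in WT cells (0.19 ± 0.10, adjusted p = 0.0944).

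In KO cells LPA changed 1 member, Slc25a20, which is 2.7% of members against 2.62% of all genes. KO libraries gave 24.9, 25.8, 22.9 and 23.2 CPM without treatment and 29.8, 29.3, 27.6 and 28.5 CPM with LPA. The groups did not overlap, with a log2 change of 0.25 ± 0.06 (adjusted p = 0.0263), against 0.05 ± 0.06 (adjusted p = 0.487) in WT. The difference of this effect between the genotypes was not called (0.20 ± 0.09, adjusted p = 0.0838). Leaving out KO LPA replicate 1, 2 or 4 or untreated KO replicate 3 or 4 ended the call, with adjusted p from 0.0571 to 0.101.

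The LPA effect differed between the genotypes for 9 members (24.3%), against 28.5% of all genes (12.7% positive, 15.8% negative). The difference, KO minus WT, was negative for Slc25a1, Slc25a10, Slc25a12, Slc25a22 and Slc25a25, carriers of citrate, dicarboxylates, aspartate and glutamate, and ATP-Mg. It was positive for Slc25a27, Slc25a30, Slc25a40 and Slc25a51. The largest were -1.05 ± 0.17 (adjusted p = 1.72e-04) for Slc25a22 and 1.44 ± 0.37 (adjusted p = 0.00702) for Slc25a27. Slc25a12 had the smallest adjusted p, with a difference of -0.63 ± 0.08 (adjusted p = 1.61e-05). For Slc25a25 the difference was -0.82 ± 0.20 (adjusted p = 0.00598) and for Slc25a51 it was 0.40 ± 0.06 (adjusted p = 1.05e-04). Without WT LPA replicate 3, 14 members were called, the same 9 among them. Of the 16 fits that left out 1 library, the call of Slc25a1 was lost in 12 and those of Slc25a10 and Slc25a40 in 5 each. Without WT LPA replicate 4 the difference for Slc25a10 was -0.30 (adjusted p = 0.0497, edgeR) in place of -0.46. With all libraries thinned to the smallest depth 6 were called, and Slc25a27 was not among them (adjusted p = 0.0744, edgeR).

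**Figure D4:**
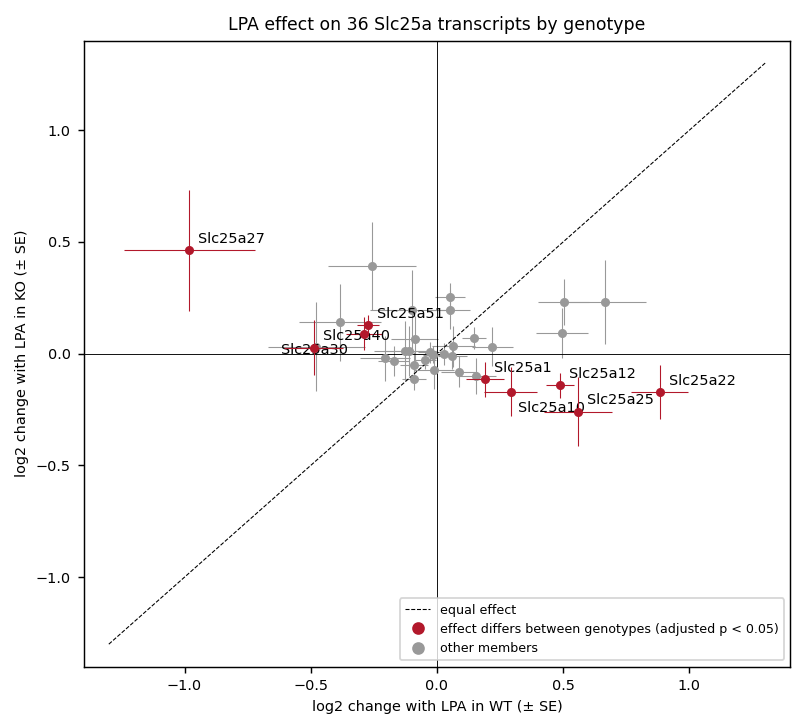
Log2 change with LPA in WT (horizontal axis) and in KO cells (vertical axis) for 36 of the 37 members, with SE bars from edgeR; the dashed line marks equal effects, and red points are the 9 members whose effect differed between genotypes. Slc25a22 stands at 0.88 in WT and -0.17 in KO, and Slc25a27 at -0.98 and 0.46.

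Untreated WT and KO cells did not differ in any member by the edgeR test, where 0.00863% of all genes were called. Unadjusted, 1 member had a p below 0.05, Slc25a22 (log2 difference -0.31 ± 0.12, adjusted p = 1), and DESeq2 called 0 members as well. With LPA, KO cells were higher for 9 members and lower for 9 (48.6%), against 50.3% of all genes (24.4% higher, 25.9% lower). Slc25a22 was lower in KO (-1.37 ± 0.12, adjusted p = 2.27e-08) and so was Slc25a12 (-0.67 ± 0.06, adjusted p = 1.49e-08), while Slc25a51 was higher (0.36 ± 0.04, adjusted p = 9.60e-07). Slc25a30 was higher too, by 0.46 ± 0.07 (adjusted p = 2.56e-05), and Slc25a25 lower, by -0.89 ± 0.15 (adjusted p = 4.42e-05). The calls of Slc25a16, Slc25a23, Slc25a33, Slc25a35 and Slc25a37 here were lost in 1 to 6 of the 8 fits that left out 1 library. This comparison shares its libraries with the difference of the LPA effects and is not independent of it.

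With LPS, KO cells were lower for 3 members (8.11%), against 2.85% of all genes called and 2.16% called lower, among them Slc25a12 and Slc25a45. Slc25a12, whose LPS values are given above, did not overlap between the genotypes (-0.29 ± 0.05, adjusted p = 0.00624). Slc25a45 stood at 106, 111, 127 and 113 CPM in WT and at 95.6, 98.1, 89.8 and 106 CPM in KO libraries, where 1 library of each overlapped (-0.23 ± 0.06, adjusted p = 0.0316). The call of Slc25a45 was lost without WT LPS replicate 2 or 3 or KO LPS replicate 1 or 3 (adjusted p of up to 0.164, edgeR). It was also lost with library totals for scaling (log2 difference -0.14, adjusted p = 0.148), in the fit of only the groups compared (adjusted p = 0.139) and with libraries thinned to the smallest depth (adjusted p = 0.0586). The LPS effect itself did not differ between the genotypes for any member by edgeR, nor for any of the 11590 genes (0%). At an unadjusted p below 0.05 it differed for 4 members and 698 genes, and DESeq2 called 1 member.

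A ratio of counts of related carriers within a library does not depend on the scaling between libraries. Of 20 tests (5 pairs by 4 treatment comparisons, exact two-sided permutation over 4 against 4 libraries) none passed after Benjamini-Hochberg adjustment. In 9 the p was the smallest that the design allows, 0.0286, with an adjusted p of 0.0635. With that floor a ratio cannot pass by itself, however far it moves, so the lack of passes is not read as a lack of change. In untreated WT cells the log2 ratio of Slc25a12 to Slc25a13 was 1.67 ± 0.07 (SD, n = 4). It was 4.16 ± 0.15 with LPS and 2.27 ± 0.15 with LPA, neither overlapping the untreated libraries. In KO cells it was 1.56 ± 0.19 untreated, 3.66 ± 0.18 with LPS without overlap, and 1.42 ± 0.26 with LPA with overlap. The log2 ratio of Slc25a33 to Slc25a36 moved with LPS from -4.25 ± 0.29 to -2.08 ± 0.19 in WT and from -4.41 ± 0.35 to -2.06 ± 0.18 in KO cells. For Slc25a39 to Slc25a40 it moved from 3.03 ± 0.18 to 4.28 ± 0.22 in WT and from 3.04 ± 0.09 to 4.19 ± 0.31 in KO cells. These LPS libraries also lay apart from the untreated ones. For the ADP/ATP carriers the log2 ratio of Slc25a4 to Slc25a5 was -0.63 ± 0.08 untreated and -0.89 ± 0.04 with LPS in WT cells, without overlap, and -0.58 ± 0.23 and -0.82 ± 0.02 in KO cells, with overlap (exact permutation p = 0.143). The ratio of the mitoferrins, Slc25a37 to Slc25a28, overlapped between LPS and untreated libraries in both genotypes, and with LPA it was separate in KO cells only, at 1.47 ± 0.11 against 1.27 ± 0.01.

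**Figure D5:**
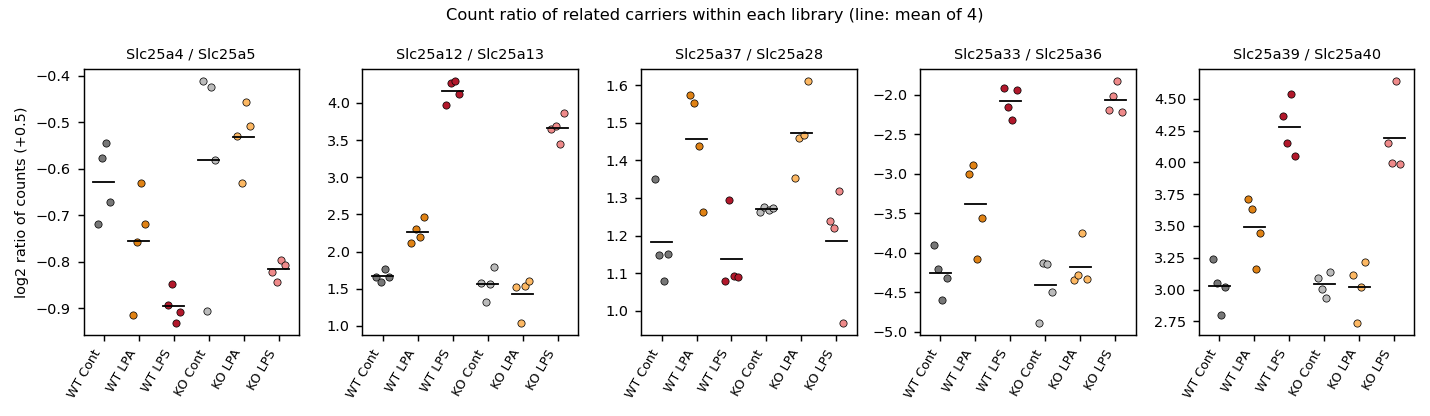
Log2 ratio of the counts of 5 pairs of related carriers in each of the 24 libraries (0.5 added to each count; each panel has its own vertical axis); lines are means of 4. The Slc25a12 to Slc25a13 ratio rises from 1.67 untreated to 4.16 with LPS in WT, and the mitoferrin ratio overlaps between untreated and LPS libraries.

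Genes that work with the carriers were read from lists by function, and each count is to be read against all genes tested in WT cells, of which 40.6% rose and 43.6% fell with LPS and 23.5% rose and 21.1% fell with LPA. Of the carrier family genes under other symbols, Ucp2, an uncoupling protein, fell with LPS in WT cells (log2 change -0.75 ± 0.06) and with LPA (-0.16 ± 0.06). It rose with LPA in KO cells (0.29 ± 0.06). The outer membrane carrier homologue Mtch2 rose with LPS in WT cells (0.19 ± 0.05). Directions of such small rises can depend on the scaling, as given above for the carriers. The lists were not read again with library totals. Of 16 import genes, which bring carriers to the inner membrane, 6 rose and 3 fell with LPS in WT cells, and 3 rose and 2 fell with LPA. The import receptor Tomm70a, which recognises carrier precursors, had log2 changes of 1.13 ± 0.07 with LPS and 0.30 ± 0.07 with LPA. The chaperone Timm10 had log2 changes of 1.06 ± 0.11 and 0.50 ± 0.11.

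Around the citrate and dicarboxylate carriers, 12 of 28 enzymes of the citrate cycle, itaconate synthesis and the malate-aspartate shuttle rose and 14 fell with LPS in WT cells, and 11 rose and 10 fell with LPA. The LPS counts are near the shares of all genes. Acod1, which makes itaconate, had log2 changes of 6.41 ± 0.26 and 2.53 ± 0.22, and Idh2, the mitochondrial isocitrate dehydrogenase, -1.48 ± 0.07 and -0.44 ± 0.06. Around the carnitine carrier, 3 of 14 genes of the carnitine shuttle and fatty acid oxidation rose and 8 fell with LPS in WT cells, while 0 rose and 6 fell with LPA. Acadm, a medium-chain acyl-CoA dehydrogenase, had a log2 change of -1.48 ± 0.07 with LPS and -0.33 ± 0.07 with LPA. Of 15 genes of coenzyme A, NAD and thiamine synthesis, 3 rose and 10 fell with LPS in WT cells. Coasy, the last enzyme of coenzyme A synthesis, fell by 1.06 on the log2 scale, and Nampt, of the NAD salvage pathway, had a log2 change of 2.04 ± 0.10. The median log2 change with LPS in WT cells was -0.58 over this list, -0.73 over the cofactor carriers and -0.04 over all genes.

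The same shares of all genes apply here (40.6% higher and 43.6% lower with LPS, 23.5% and 21.1% with LPA). Of the factors listed for mitochondrial biogenesis 10 were measured, and in WT cells 9 rose and 1 fell with LPS. With LPA 6 of the 10 rose. Among the rises were Pprc1 (log2 changes of 1.53 ± 0.11 with LPS and 0.71 ± 0.11 with LPA) and Myc (2.25 ± 0.19 and 0.73 ± 0.18). The list also holds Myc, Nfe2l2 and Hif1a, which are not particular to mitochondria. The counts are therefore not read as a rise of biogenesis. In WT cells ATP synthase subunits gave 9 rises and 2 falls of 15 with LPS. Their median log2 change was 0.20, so these directions may depend on the scaling. Of 22 genes of haem and iron-sulfur synthesis and iron handling, 6 rose and 11 fell with LPS. The iron transporter Slc11a2 had a log2 change of 1.34 ± 0.07, and the haem synthesis enzyme Urod -1.66 ± 0.10. Enzymes of ornithine, arginine, glutamate and proline gave 5 rises and 5 falls of 12 with LPS. One-carbon and methionine enzymes gave 4 rises and 7 falls of 14, genes of mitochondrial nucleotides and DNA 4 rises and 8 falls of 13, and other mitochondrial membrane transport 10 rises and 8 falls of 19, including Vdac3, a porin, at 0.98 ± 0.05. In KO cells LPA called at most 1 gene of each list of functions.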

How the data were processed

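RNA of 24 macrophage libraries (stranded mRNA kit, paired 51-base reads) was aligned to mm10 with STAR 2.5.2a, per the submitters' processing notes and the labels' protocols. The authors deposited raw gene counts. How reads were counted, by which tool, strand setting and gene annotation, is not stated in the labels. No gene in the table totals under 170 counts, so low genes had been removed, and 9 rows without a symbol stayed in the fit. Counts were tested with edgeR 4.0.16 (R 4.3.3, filterByExpr, TMM factors of 0.739 to 1.18, robust quasi-likelihood test) in 1 model with a mean for each of 6 groups over all 24 libraries (18 residual degrees of freedom), with Benjamini-Hochberg adjustment over 11590 genes in each comparison. The biological coefficient of variation was 9.91%. The fit was tested on simulated data in which 200 genes were changed in the WT LPA group only. Such data hold no LPS shift, replicate pairing or lane effect, so the test does not bear on these. Count ratios used 0.5 added to each count and exact permutation tests (scipy 1.17.1). Gene positions and shared 51-base stretches came from GENCODE annotation of GRCm38, the assembly behind mm10, and promoters from RefSeq (GRCm38.p6). Within a group no library was a copy of another: over 36 replicate pairs the chi-square of the counts, divided by its degrees of freedom, was 4.13 to 77.5. Libraries of different groups were not compared in this way.

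Named members were, in each treatment comparison, up to 5 called members with the largest rise and 5 with the largest fall, up to 5 with the smallest adjusted p in each other comparison, and the 10 genes of the paralogue pairs. Other members are given by counts or where a substrate group is described. From other lists up to 3 genes with the smallest adjusted p were named, by LPS in WT cells. Members and gene lists were chosen with earlier results of these data known. Within a genotype the deviations of same-numbered libraries were positively correlated. The correlations were 0.211 to 0.626 in WT between untreated and LPA, 0.0692 to 0.299 in WT with LPS, and 0.114 to 0.772 in KO between all treatments. The own number was the best match except for replicate 1, in WT with LPS and in KO between untreated and treated libraries. The reported fit holds no term for these numbers. They were taken as a block within a genotype in an alternative fit only, with this limit. Between the genotypes (-0.576 to 0.177) the own number was never the best match. Alternatives were DESeq2 1.42.0, other scalings and filters, thinning to the smallest library, only the groups compared, the replicate block, and leaving out each library. Intervals cover counting error only. Values of 1 member, which entered the fits and counts, are not reported here.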

Additional observations from a re-analysis of the deposited data

Results flagged for a closer look

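In each group of 4 libraries the highest or lowest value of 23 named members was compared with the others, 138 groups in all, and chance sets a library apart in about 1 in 20. A library stood apart in 9. Slc25a10 was at 91.8 CPM in WT LPA replicate 4, against 60.04 to 63.6 CPM in the other LPA libraries of WT. Slc25a22 was at 474 CPM in WT LPS replicate 3 (others 406 to 417), and Slc25a43 at 4.33 CPM in untreated WT replicate 3 (4.93 to 4.97). In KO cells replicate 2 was apart for Slc25a13 with LPA, at 18.4 CPM (12.3 to 13.3), for Slc25a23 with LPS, at 2.33 CPM (3.84 to 4.08), and for Slc25a28 with LPS, at 46.9 CPM (35.4 to 36.97). Slc25a33 was high in KO replicate 3 both with LPA, at 3.79 CPM (2.43 to 2.58), and with LPS, at 9.15 CPM (6.84 to 7.22). Slc25a42 was low in untreated KO replicate 4, at 2.5 CPM (3.03 to 3.12).

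The LPA effect differed between the genotypes, by edgeR's test of the difference, for 9 members. The log2 difference, KO minus WT, was -1.05 for Slc25a22, -0.82 for Slc25a25, -0.63 for Slc25a12, -0.46 for Slc25a10 and -0.31 for Slc25a1. It was 1.44 for Slc25a27, 0.52 for Slc25a40, 0.40 for Slc25a51 and 0.38 for Slc25a30. KO libraries were sequenced on 1 lane and WT libraries on 2, and the part of the lane in these differences was not tested. With all libraries thinned to the smallest depth, 6 members were called.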

How the results depend on the processing

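For 44 results of named members, 740 values under other settings gave 716 on the same side of the threshold, 24 no longer past it and 0 reversed. Members called kept within 1.5 times of the reported count apart from these cases. DESeq2 called 1 member in the difference of the LPS effects, where it adjusted 23 members. The fit of only the groups compared called 2 in KO cells with LPA. Leaving out 1 library at a time gave 11 to 20 with LPA in WT, 0 to 1 with LPA in KO, 31 to 32 with LPS in WT, 32 to 34 with LPS in KO, and 6 to 14 in the difference of the LPA effects, with 14 reached without WT LPA replicate 3. The cause was not tested. Thinning to the smallest library gave 11 members with LPA in WT and 6 in the difference of the LPA effects, and Slc25a27, of low count, lost its call in both.

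With the replicate block the count was 18 with LPA in WT, 1 with LPA in KO, 32 with LPS in each genotype, 14 for KO against WT with LPA and 11 in the difference of the LPA effects. For KO against WT with LPS, where the numbers do not pair the libraries, the block called 0 of 35 members tested. The adjusted p of Slc25a12 and Slc25a45 was then 0.154 and 0.247 (edgeR), and outside this comparison no named member lost its call with the block.

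The sign of 3 ratios that were not called turned when 1 library was left out. The log2 ratio change of Slc25a37 to Slc25a28 with LPS in WT ranged from -0.0949 to 0.0122, that of Slc25a4 to Slc25a5 with LPA in KO from -0.0590 to 0.105, and that of Slc25a39 to Slc25a40 with LPA in KO from -0.0847 to 0.0740.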
